A study of Saccharomyces cerevisiae with 18 samples.

Results

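The total RNA of R28P-30B yeast cultures was compared with that of wild type (WT) cultures, gene by gene, to describe the pathways that differed apart from the engineered loci themselves. The comparison used 4 of the 18 libraries of the series, made from 2 R28P-30B cultures and 2 WT cultures of Saccharomyces cerevisiae. The 2 total extracts labelled R28P-30A, whose marker reads contradict that label, also entered the fit, only to estimate each gene's spread. Of 7126 genes in the deposited table, the 5513 with a mean of at least 5 CPM (reads scaled to each library's total) over the 4 libraries were tested, and RPL7A, RPL7B, URA3 and LEU2, which mark the strains, were then set aside, leaving 5509. The lowest gene kept was YFL066C, at a mean of 5.02 CPM, and the highest gene left out was YNL146W, at 4.99 CPM.

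R28P-30B cells lack both chromosomal genes of the large subunit protein uL30: RPL7A was replaced by URA3 and RPL7B by the KMX cassette. Their uL30 came from a LEU2 plasmid that carried an intronless RPL7B reading frame under the RPS28A promoter. WT cells kept both chromosomal genes and had neither plasmid nor cassette. Both strains carried deletions of the original HIS3, LEU2, LYS2 and URA3 genes, so R28P-30B cells had URA3 and LEU2 back and WT cells did not. Cells were grown at 30 °C in yeast complete (YC) medium and collected in exponential phase. The effects of the uL30 source, the plasmid, the cassettes and the regained URA3 and LEU2 genes cannot be told apart in this design. The labels do not say whether the 2 cultures of a strain came from separate clones, so p-values measure only the spread between these samples.

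The series asks whether ribosomes that hold only 1 form of a duplicated ribosomal protein lead to a different gene expression program. Yeast grown on glucose ferments it and holds genes for respiration, other carbon sources and storage sugars low, while amino acid and nucleotide pathways are tuned by their end products. Dedicated activators read these states. Hap4 drives respiratory genes, Gcn4 drives amino acid synthesis, Ppr1 drives pyrimidine genes, Leu3 drives leucine genes, Msn2 and Msn4 drive stress genes and Ste12 drives mating genes.

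The R28P-30B and WT libraries matched their labels. RPL7A had 99 and 85 reads in the R28P-30B libraries, against 37212 and 37538 reads in the WT libraries. URA3 had 9299 and 7549 reads in R28P-30B, against 0 and 1 in WT, and LEU2 had 16517 and 14065 reads in R28P-30B, against 1 in each WT library. The a-specific genes, which mark MATa cells, summed to 2776 and 2770 CPM in R28P-30B and to 2993 and 3089 CPM in WT, and the defining MAT alpha regulator MATALPHA1 was at 0 reads in all 4 libraries, while MATALPHA2 had 52 and 44 reads in R28P-30B and 24 and 9 reads in WT. The 4 libraries held 26945553 and 22013633 reads for R28P-30B and 26699585 and 28095211 reads for WT.

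Of the 5509 genes, 1678 (30.5%) were called at an adjusted p under 0.05 (limma on log2(CPM + 0.5), Benjamini-Hochberg over all genes). In R28P-30B, 639 genes (11.6%) were higher and 1039 (18.9%) were lower. A fit of only the 4 R28P-30B and WT libraries called 687 higher and 1130 lower. Most of these differences were small: the median was 0.38 for the genes called higher and -0.25 for those called lower, on the log2 scale, while the median over all genes was -0.06. The excess of lower calls depended on scaling. After each library was centred on its median gene, 833 genes were higher and 709 lower, and edgeR's quasi-likelihood test on recovered reads gave 860 higher and 646 lower. Changes larger than 2-fold (log2 1) were few and mostly upward, with 49 genes higher (0.889%) and 11 lower (0.2%). A fold below is on the log2(CPM + 0.5) scale, which understates the change of low genes.

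**Figure D1:**
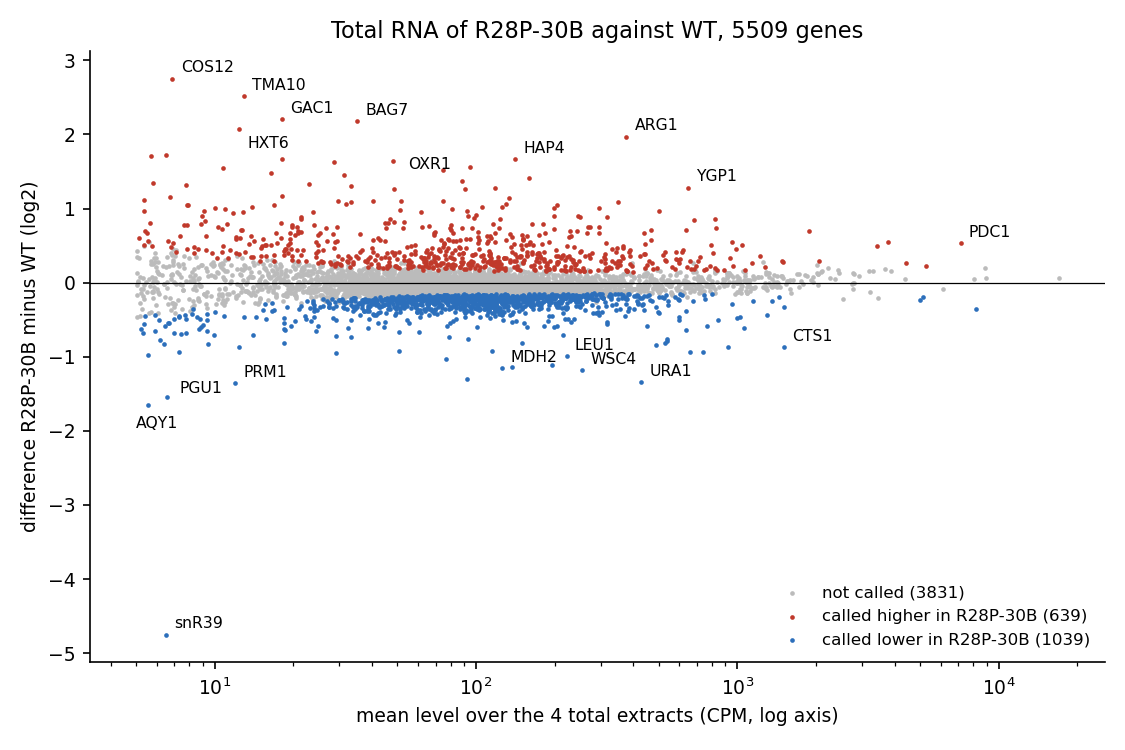
Each point is 1 of 5509 genes, with its mean level over the 4 total extracts (CPM, log axis) against the log2 difference R28P-30B minus WT; red points were called higher (639), blue points lower (1039), and named genes are labelled. The genes beyond 1 on the log2 scale lie mostly on the upper side, 49 against 11.

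Differences between the R28P-30B and WT cultures exceeded those between the 2 cultures of each label. The 2 R28P-30B cultures differed from each other by more than 2-fold at 2 genes, and so did the 2 WT cultures, whereas each R28P-30B culture differed from each WT culture at 44 to 82 genes. Both R28P-30B cultures lay above both WT cultures at 1306 genes (23.7%) and below both at 2528 genes (45.9%). The counts of gene lists below are to be read beside the shares over all genes, 11.6% called higher and 18.9% lower. A list near these shares gives no result about its members. Over the 46 gene lists examined, small counts were unsteady: of 35 counts of 1 to 4 called members in a direction, 24 moved by over 1.5 times when some library was left out. No chromosome stood apart: the median difference of the 16 nuclear chromosomes ranged from -0.08 to -0.04 on the log2 scale.

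The 24 genes named for the largest changes, 12 in each direction, were spread over several pathways. Upward, they were COS12, TMA10, GAC1, BAG7, HXT6, ARG1, MF(ALPHA)1, MPC3, YKR075C, HAP4, NCA3 and ARG3. COS12, a subtelomeric gene of the COS family of endosomal sorting proteins, had 12.7 and 11.9 CPM in R28P-30B, against 1.01 and 1.89 CPM in WT, a log2 difference of 2.75 ± 0.39 (SE). Reads that fit several COS genes were kept at every position, so the share of each COS gene is uncertain. MPC3, a subunit of the mitochondrial pyruvate carrier that serves respiration, had 5.46 and 12.8 CPM in R28P-30B and 2.28 and 2.17 CPM in WT. The groups did not overlap for either gene, which their naming required, and MPC3 was uneven between the R28P-30B cultures.

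Downward, the largest change was that of snR39, a small nucleolar RNA that lies in an intron of RPL7A itself (chromosome VII, positions 365163 to 365251, minus strand, R64). RPL7A was replaced in R28P-30B, so this loss was fixed by the strain design, although snR39 stayed in all counts. It had 0 reads in both R28P-30B libraries and 356 and 354 reads in the WT libraries, which is at least 92.5-fold lower in R28P-30B against a floor of 3 reads per library. The other 11 were AQY1, PGU1, PRM1, URA1, ICS2, WSC4, MDH2, AGA1, HO, HMS2 and LEU1. AQY1, a water channel of the spore, had 2.45 and 2.41 CPM in R28P-30B and 8.13 and 9.25 CPM in WT. PGU1, a secreted enzyme that digests pectin and is known as a target of filamentous growth signalling, had 3.64 and 2.63 CPM in R28P-30B and 9.96 and 10.1 CPM in WT. Both genes are weakly expressed. The R28P-30B values were all below the WT values, which their naming required.

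Genes of respiration rose together. Of 49 nuclear genes of the respiratory chain and its regulators tested (50 listed), 33 were called higher and 5 lower, with a median of 0.34 on the log2 scale against -0.06 for all genes, and between 29 and 34 were called higher under every alternative scaling, tool and left-out library examined. HAP4, the glucose-repressed activator subunit of the Hap complex, had 190 and 241 CPM in R28P-30B, against 60.3 and 73.9 CPM in WT, a 3.18-fold higher level (log2 1.67 ± 0.12 SE, adjusted p = 3.37e-07, limma). NDE1, an external NADH dehydrogenase of the inner mitochondrial membrane, had 451 and 500 CPM in R28P-30B and 213 and 232 CPM in WT. For both genes the lower R28P-30B culture was well above the higher WT culture.

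The structural members rose by less. CYC1, the main cytochrome c, had 123 and 131 CPM in R28P-30B and 70.1 and 68.8 CPM in WT (log2 0.87 ± 0.06 SE). QCR8, a subunit of complex III, had 97.7 and 104 CPM in R28P-30B and 63.6 and 54.3 CPM in WT. RIP1, the Rieske protein of complex III, differed by 0.58, and ATP1 and ATP2, the alpha and beta subunits of the ATP synthase, by 0.41 and 0.51 on the log2 scale. The 5 members called lower were HAP1, HAP2 and HAP3, which encode regulators, COX5B, the subunit made when oxygen is low, and CYB2, a lactate dehydrogenase. HAP1, at -0.22 on the log2 scale, lost its call with edgeR (adjusted p = 0.06), with DESeq2 (adjusted p = 0.0519), without trend, and without the first R28P-30B or the second WT culture. CYB2 had 20.003 and 19.7 CPM in R28P-30B and 29.9 and 30.3 CPM in WT. Of the mitochondrial genome, 1 of 18 genes passed the CPM minimum in these libraries, which were made from polyadenylated RNA.

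The tricarboxylic acid cycle followed the same direction, with 18 of 32 genes called higher, 2 lower, and a median of 0.19 on the log2 scale. ACO1, the aconitase, had 345 and 344 CPM in R28P-30B and 207 and 200 CPM in WT, 1.69-fold higher. CIT1, the mitochondrial citrate synthase, had a log2 difference of 0.40, and its homologue CIT3 one of 0.78 at low levels of 9.32 and 10.2 CPM in R28P-30B and 5.62 and 5.34 CPM in WT. MDH2 went the other way. This cytosolic malate dehydrogenase of gluconeogenesis had 84.6 and 71.3 CPM in R28P-30B, against 165 and 183 CPM in WT (log2 -1.15 ± 0.08 SE, adjusted p = 3.04e-07, limma). Its values did not overlap between the strains. Among 29 tested genes of gluconeogenesis, the glyoxylate cycle and fat oxidation, 7 were higher and 4 lower, and between 3 and 4 were higher when any 1 library was left out.

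**Figure D2:**
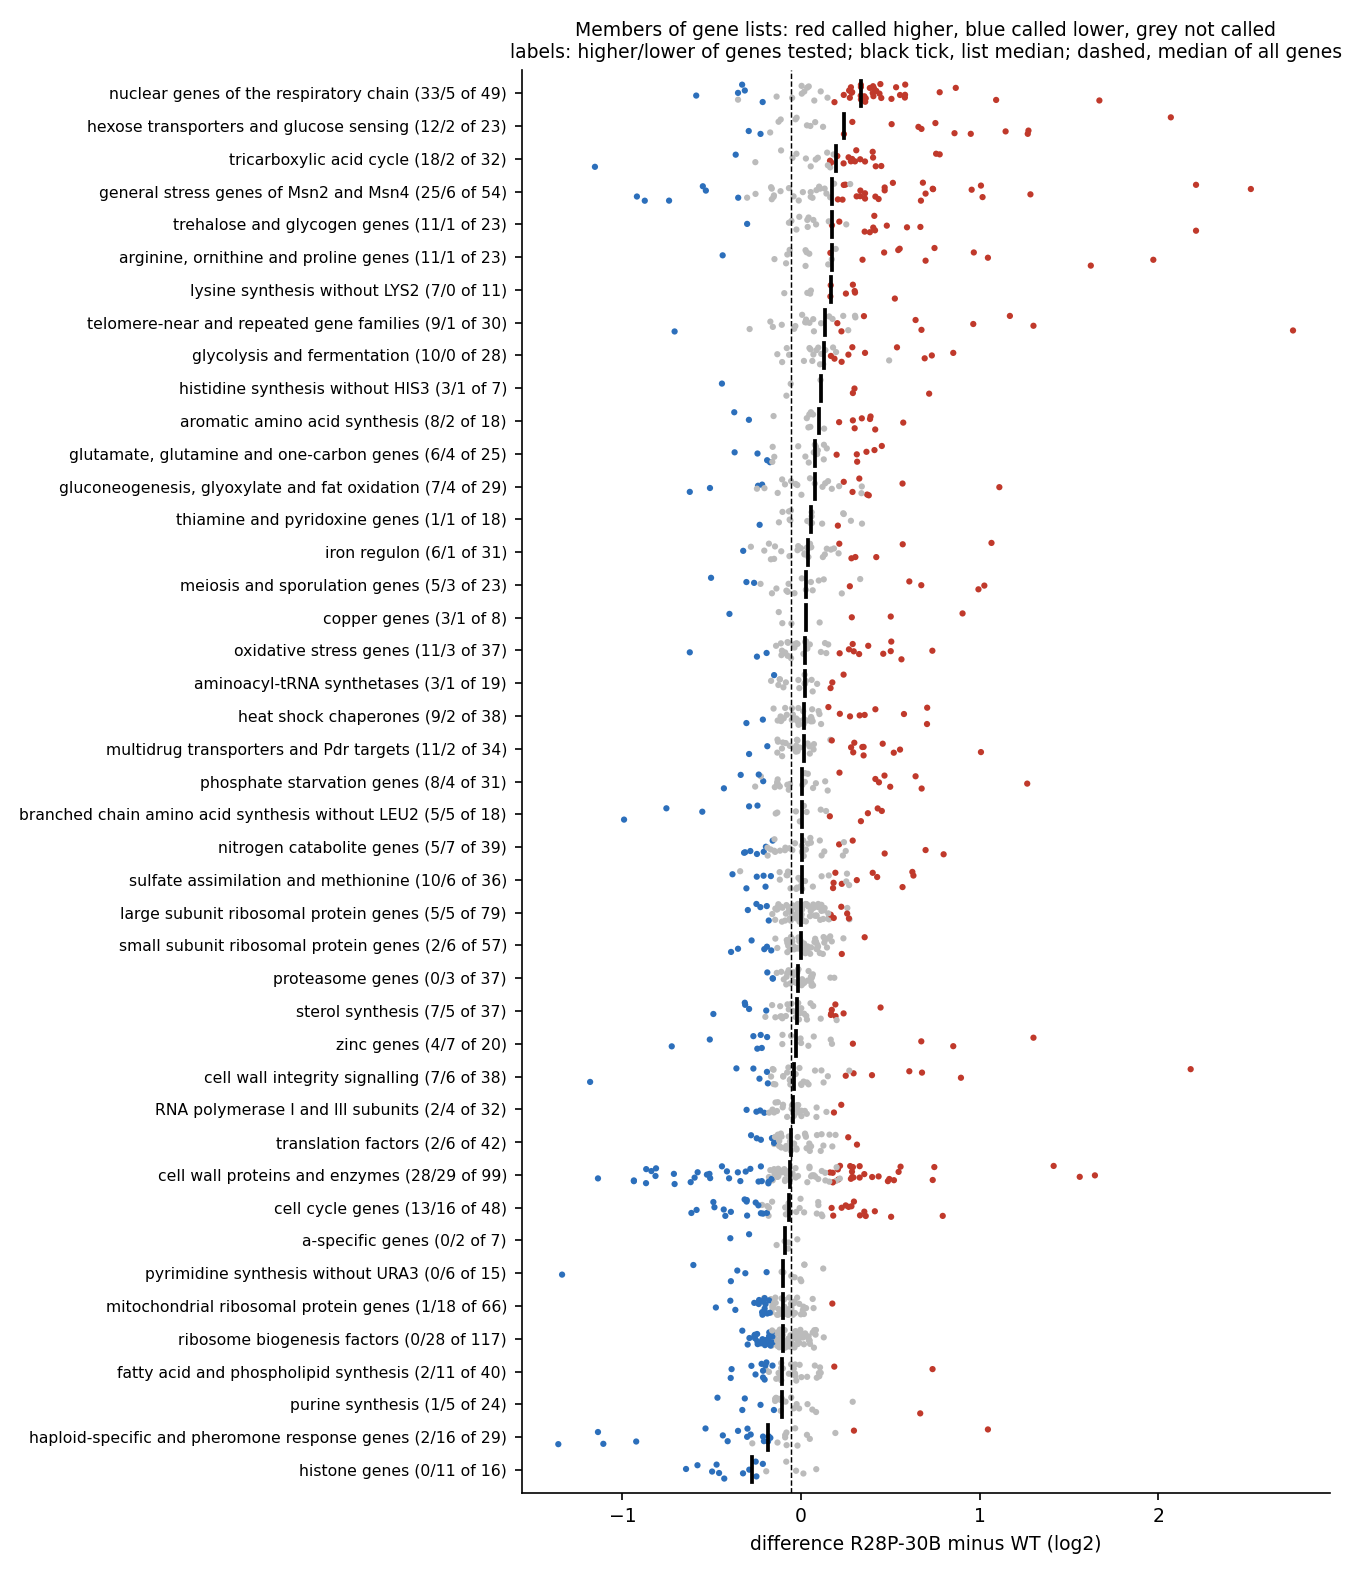
Each row is a gene list with at least 7 tested members; points give each member's log2 difference R28P-30B minus WT (red called higher, blue lower, grey not called), the black tick the list median and the dashed line the median of all genes, and labels give higher/lower calls of genes tested. The respiratory chain, hexose transport and tricarboxylic acid cycle lists have the highest medians (0.34, 0.24 and 0.19), and the histone and pheromone lists the lowest (-0.27 and -0.18).

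Sugar transport changed with them. Of 23 hexose transporter and glucose sensing genes tested (31 listed), 12 were called higher and 2 lower, with a median of 0.24 on the log2 scale. HXT6, a high-affinity hexose transporter, had 17.7 and 23.1 CPM in R28P-30B, against 4.42 and 4.45 CPM in WT. HXT6 and HXT7 are nearly identical, so their reads cannot be split with certainty, and HXT7 was higher by 0.67 on the log2 scale. HXT2, a transporter used when glucose is limited, had 142 and 193 CPM in R28P-30B and 64.7 and 72.1 CPM in WT, and HXT4, of similar use, had 120 and 136 CPM in R28P-30B and 53.8 and 51.8 CPM in WT.

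HXT3, a low-affinity transporter, had 939.9 and 1182 CPM in R28P-30B and 572 and 590 CPM in WT (log2 0.86). HXT1, the transporter known for induction by high glucose, was not called, at 207 and 252 CPM in R28P-30B and 238 and 261 CPM in WT, and its groups overlapped. MIG2, a repressor that acts when glucose is present, was higher by 1.15, at 154 and 216 CPM in R28P-30B and 81.5 and 82.8 CPM in WT. The 2 lower genes were the sensor gene RGT2 and the repressor gene RGT1, and RGT2 lost its call with DESeq2 (adjusted p = 0.0851) and without the second R28P-30B or the second WT culture. Transporters of high and of low affinity were both among the genes called higher.

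In glycolysis and fermentation, 10 of 28 tested genes were called higher, with a median of 0.13. None was called lower by limma, edgeR or DESeq2, and 0 were lower at an unadjusted p under 0.05 by limma, although 4 members lay below WT in all 4 culture pairs. ENO1, an enolase, had 2240 and 2413 CPM in R28P-30B and 1499 and 1382 CPM in WT. PDC1, the main pyruvate decarboxylase, had 8079 and 8858 CPM in R28P-30B and 6013 and 5652 CPM in WT, 1.45-fold higher. ADH4 and ADH5, alcohol dehydrogenases, differed by 0.85 and 0.73 on the log2 scale.

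Storage sugar and stress genes were the next group. Of 23 trehalose and glycogen genes, 11 were higher and 1 lower, with a median of 0.17. GAC1, which directs the phosphatase Glc7 to glycogen synthase, had 23.6 and 36.7 CPM in R28P-30B, against 5.73 and 6.19 CPM in WT (log2 2.21 ± 0.16 SE, adjusted p = 5.54e-07, limma). TPS2, the trehalose-6-phosphate phosphatase, had 265 and 286 CPM in R28P-30B and 190 and 205 CPM in WT. The R28P-30B and WT values did not overlap at either gene.

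The stress list behaved unevenly. Of 54 genes known as targets or regulators of Msn2 and Msn4 (57 listed), 25 were higher and 6 lower, with a median of 0.17. TMA10, a ribosome-associated stress protein, had 15.7 and 29.3 CPM in R28P-30B and 3.60 and 3.10 CPM in WT (log2 2.52 ± 0.22 SE), and YGP1, a secreted glycoprotein made when nutrients run low, had 887 and 947 CPM in R28P-30B and 353 and 401 CPM in WT. STF2, a protein linked to desiccation tolerance, was higher by 1.02 on the log2 scale, and the repressor gene XBP1 by 0.95.

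Several classic members of this list were lower or did not pass the test. HSP26, a small heat shock protein, had 84.9 and 74.6 CPM in R28P-30B, against 153 and 149 CPM in WT (log2 -0.92 ± 0.08 SE). DDR48, a stress protein gene, had 23.6 and 25.8 CPM in R28P-30B and 42.1 and 41.0 CPM in WT. HSP12, a membrane stress protein, was not called, at 236 and 292 CPM in R28P-30B and 328 and 299 CPM in WT. The activator genes themselves split, with MSN4 higher by 0.51 and MSN2 at -0.35 on the log2 scale. Of 38 chaperone genes, 9 were higher (5 without the second R28P-30B culture) and 2 lower, among them HSP104, the disaggregase, higher by 0.70 and HSP42, a small heat shock protein, higher by 0.71. Oxidative stress genes counted 11 higher and 3 lower of 37, and 1 lower without the second WT culture and with median centring, edgeR or DESeq2.

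The TMA10, GAC1, BAG7 and HXT6 levels were higher in the second R28P-30B culture than in the first, and so were those of ARG1, HAP4, PIR3 and HXT2. As a ratio, the WT cultures differed less at these 8 genes. Without the second R28P-30B culture, 419 genes were called higher, and 49 genes beyond 2-fold became 34. The stress list then had 18 members called higher.

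Genes of arginine synthesis were among those that rose. Of 23 arginine, ornithine and proline genes, 11 were higher and 1 lower, with a median of 0.17 on the log2 scale. ARG1, argininosuccinate synthetase, had 515 and 686 CPM in R28P-30B, against 146 and 156 CPM in WT, 3.92-fold higher (log2 1.97 ± 0.16 SE, adjusted p = 1.08e-06, limma). ARG3, ornithine carbamoyltransferase, had 36.4 and 50.3 CPM in R28P-30B and 14.0 and 13.1 CPM in WT. The groups stood far apart at both genes.

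Other members called higher differed by less. ARG5,6, which encodes 2 early enzymes of the pathway in 1 precursor, had 244 and 305 CPM in R28P-30B and 126 and 138 CPM in WT. ARG4 and ARG7 differed by 0.55 and 0.70. On the side of breakdown, the arginase gene CAR1 was higher by 0.75 and CAR2, the ornithine transaminase, was the 1 gene called lower, at -0.44 on the log2 scale.

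Other amino acid lists also had more members higher than lower, where 11.6% of all genes were called higher and 18.9% lower. Histidine synthesis had 3 of 7 genes higher and 1 lower, lysine synthesis (median 0.17) 7 of 11 higher and 0 lower by limma, edgeR or DESeq2 (also 0 lower at an unadjusted limma p under 0.05), and aromatic amino acid synthesis 8 of 18 higher and 2 lower. HIS4, a multifunctional enzyme of histidine synthesis, had 747 and 834 CPM in R28P-30B and 462 and 499 CPM in WT. The lysine count was the least stable, at 2 without the second R28P-30B culture and 4 without the first R28P-30B or the second WT culture. LYS20, a homocitrate synthase, had 197 and 226 CPM in R28P-30B and 145 and 148 CPM in WT, and ARO3, the first enzyme of the aromatic pathway, was higher by 0.57. Sulfate assimilation and methionine genes had 10 higher and 6 lower of 36. The list had 3 higher without the second R28P-30B culture and 4 without the first WT culture, and 2 lower without the first R28P-30B culture and 3 without the first WT culture. Median centring and edgeR each gave 11 higher and 3 lower. Glutamate, glutamine and one-carbon genes had 6 higher and 4 lower of 25, but median centring and edgeR each gave 10 higher and 1 lower, DESeq2 10 and 2, and leaving out the second R28P-30B culture 5 and 1. Without the second WT culture 6 were higher and 2 lower.

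Many genes of amino acid synthesis are known targets of Gcn4, and its core letters TGACTC were searched on both strands in the 500 bases before the start codon. The matches are given for the arginine, histidine, lysine and aromatic lists. The letters were found in 10 of the 11 arginine, ornithine and proline genes called higher, in 6 of the 11 not called, in the 1 called lower (CAR2) and in 13.1% of 5392 promoters of tested genes. Of the histidine genes, 3 of 3 called higher, 2 of 3 not called and the 1 called lower (HIS6) held them. Of the lysine genes, 3 of 7 called higher and 1 of 4 not called held them, and of the aromatic genes 4 of 8 called higher, 2 of 8 not called and 0 of 2 called lower. The match nearest the start codon is shown for 3 genes (RefSeq, R64; the capitals mark TGACTC or its reverse complement), because these genes had the largest differences of their lists.
ARG1 (chrXV:218917-218962, plus strand): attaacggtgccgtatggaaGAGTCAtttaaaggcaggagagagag
ARG3 (chrX:268465-268510, plus strand): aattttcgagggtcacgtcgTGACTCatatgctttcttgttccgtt
HIS4 (chrIII:68507-68552, minus strand): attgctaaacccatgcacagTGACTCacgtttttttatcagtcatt

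Pyrimidine synthesis differed from those pathways. Of 15 genes apart from URA3, none was called higher by limma, edgeR or DESeq2, and 0 were higher at an unadjusted p under 0.05 by limma. By limma 6 were lower, and the median was -0.10 on the log2 scale. No member lay above WT in all 4 culture pairs. URA1, dihydroorotate dehydrogenase, had 262 and 223 CPM in R28P-30B, against 603 and 620 CPM in WT, 0.396 of the WT level (log2 -1.34 ± 0.07 SE, adjusted p = 2.50e-08, limma). URA4, dihydroorotase, had 129 and 121 CPM in R28P-30B and 189 and 190 CPM in WT. FUI1, the uridine permease, had 263 and 243 CPM in R28P-30B and 325 and 338 CPM in WT.

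The other members called lower differed by less. URA8, a CTP synthase, was at -0.31 and URA2, which carries out the first steps, at -0.19 on the log2 scale, and URA2 lost its call in 6 of the 16 alternatives examined. CDD1, the cytidine deaminase, was at -0.36 and lost its call without the first R28P-30B culture (adjusted p = 0.0636, limma). PPR1, the gene of the activator itself, had 60.3 and 58.1 CPM in R28P-30B and 59.2 and 57.8 CPM in WT and was not called. In the total extracts labelled R28P-30A, whose URA3 and RPL7B reads went against that label, URA1 had 642 and 654 CPM and URA4 198 and 194 CPM.

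The Ppr1 letters CGGNNNNNNCCG were found in 3 of the 6 lower pyrimidine genes (FUI1, URA1 and URA4), in none of the 9 not called, and in 2.76% of all 5392 promoters of the same length. They are shown for the 2 genes with the largest differences of the list, with the letters in capitals.
URA1 (chrXI:25014-25065, plus strand): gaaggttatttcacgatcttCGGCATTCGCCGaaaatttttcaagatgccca
URA4 (chrXII:963635-963686, plus strand): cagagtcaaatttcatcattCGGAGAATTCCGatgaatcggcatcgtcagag

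Branched chain amino acid genes, LEU2 set aside, split evenly, with 5 of 18 higher (3 without the second R28P-30B culture) and 5 lower. LEU1, the isopropylmalate isomerase that acts just before Leu2, had 144 and 154 CPM in R28P-30B, against 285 and 307 CPM in WT, 0.503 of the WT level (log2 -0.99 ± 0.06 SE, adjusted p = 1.06e-07, limma). OAC1, a mitochondrial carrier of oxaloacetate and isopropylmalate, had 70.4 and 67.7 CPM in R28P-30B and 113 and 121 CPM in WT. BAT1, the mitochondrial branched chain transaminase, had 248 and 268 CPM in R28P-30B and 373 and 383 CPM in WT. At all 3 genes the strains did not overlap.

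The cytosolic transaminase BAT2, by contrast, was higher, at 303 and 275.5 CPM in R28P-30B and 215 and 214 CPM in WT, and so was GDH1, the main glutamate dehydrogenase, by 0.45 on the log2 scale. ILV5, of the shared valine and isoleucine steps, was not called, at 1529 and 1516 CPM in R28P-30B and 1639 and 1721 CPM in WT, nor was LEU3, at 131 and 134 CPM in R28P-30B and 129 and 142 CPM in WT. The Leu3 letters CCGGNNCCGG were rare, in 0.297% of promoters. They stood before 2 of the 5 lower genes (LEU1 and BAT1), 1 of the 5 higher genes (GDH1) and 2 of the 8 not called (ILV2 and ILV5), so genes with these letters were found in each class. Both lower ones are shown with the letters in capitals.
LEU1 (chrVII:478840-478889, minus strand): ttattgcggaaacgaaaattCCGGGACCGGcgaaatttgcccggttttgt
BAT1 (chrVIII:517365-517414, plus strand): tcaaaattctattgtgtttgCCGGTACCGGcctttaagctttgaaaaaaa

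Purine synthesis had 1 of 24 genes higher and 5 lower, beside 11.6% higher and 18.9% lower over all genes, and a median of -0.11. With edgeR or DESeq2, 3 were lower, and the lower count also fell without any 1 library. ADE12, adenylosuccinate synthase, was the higher one, at 365 and 363 CPM in R28P-30B and 233 and 225 CPM in WT. ADE17, of the last steps towards IMP, was at -0.47 on the log2 scale.

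**Figure D3:**
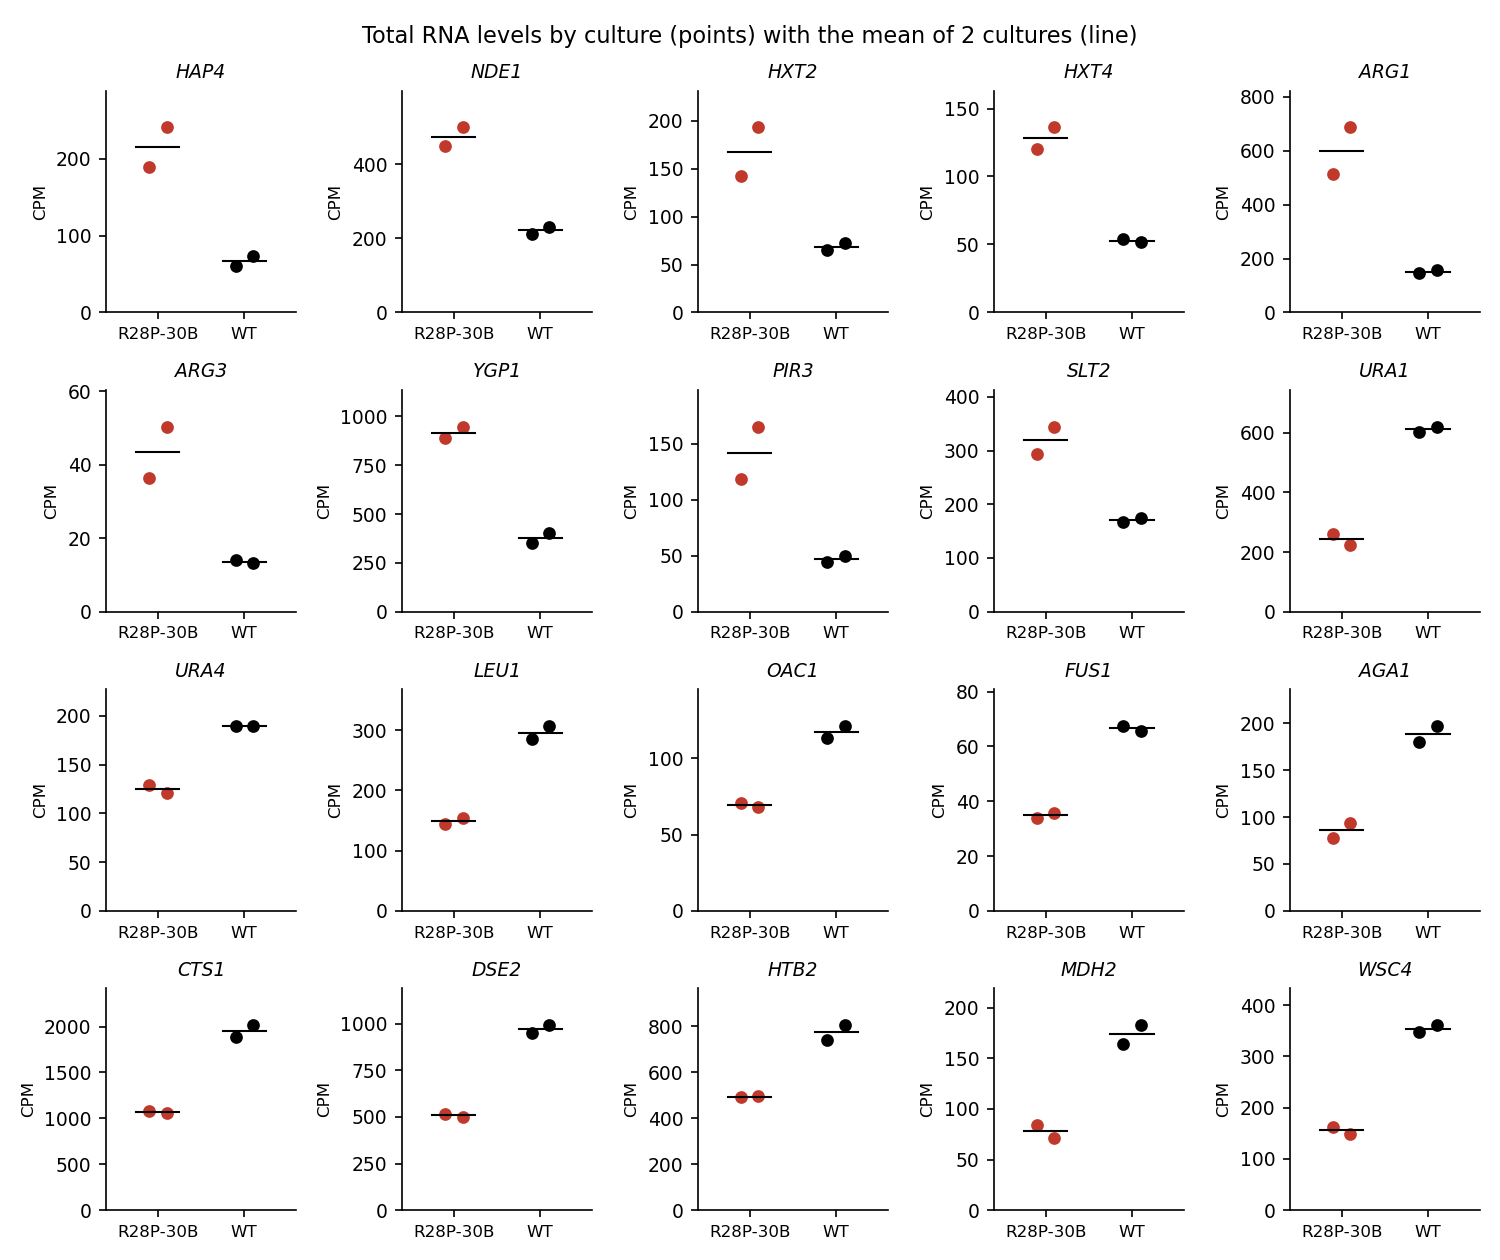
CPM in each culture (points; R28P-30B left, WT right) and the mean of 2 cultures (line) for 20 genes, each axis starting at 0. The 2 strains do not overlap at any of these genes. The genes were named by a rule that required this or after their values were seen, so it follows from the choice. For ARG1 the R28P-30B cultures are at 515 and 686 CPM and the WT cultures at 146 and 156 CPM.

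Genes of mating and haploid cells were lower as a group. Of 29 tested (33 listed), 16 were lower and 2 higher, with a median of -0.18 on the log2 scale, and 10 to 16 were lower in the alternatives examined, the fewest without the second WT culture. PRM1, which acts in fusion of mating cells, had 6.12 and 6.90 CPM in R28P-30B, against 17.004 and 17.9 CPM in WT (log2 -1.36 ± 0.12 SE). AGA1, the anchor of a-agglutinin, had 78.0 and 93.3 CPM in R28P-30B and 180 and 197 CPM in WT, and FUS1, another fusion protein, had 34.0 and 35.8 CPM in R28P-30B and 67.5 and 65.8 CPM in WT. HO, the mating type switching endonuclease, was also lower, at 131 and 117 CPM in R28P-30B and 263 and 272 CPM in WT. The kinase gene FUS3 was at -0.53 and the activator gene STE12 at -0.28. PRM10, a pheromone-regulated membrane protein gene, was higher by 1.05.

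Markers of mating type moved little beside this. Of 7 a-specific genes, 2 were lower (BAR1 at -0.40 and AGA2 at -0.29), while the receptor gene STE2 had 987 and 978 CPM in R28P-30B and 1074 and 1087 CPM in WT and was not called. The 7 alpha-specific genes summed to 101 and 116 CPM in R28P-30B and to 100 and 108 CPM in WT, and 1 of the 4 tested was called, MF(ALPHA)1, a pheromone precursor, at 7.76 and 12.9 CPM in R28P-30B and 2.96 and 2.46 CPM in WT. In bulk RNA, fewer cells of a type and less RNA per cell cannot be told apart. Meiosis and sporulation genes had 5 higher and 3 lower of 23 tested (40 listed), with 3 higher without the first WT culture, and 1 lower without the first R28P-30B culture and with DESeq2.

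The Ste12 letters TGAAACA were found in 11 of the 16 lower genes of this list, in 4 of the 11 not called, in 1 of the 2 called higher and in 11.8% of all promoters. The match nearest the start codon is shown for 3 lower members, with the letters or their reverse complement in capitals.
FUS1 (chrIII:71623-71669, plus strand): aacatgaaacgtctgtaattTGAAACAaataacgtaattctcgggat
PRM1 (chrXIV:110738-110784, plus strand): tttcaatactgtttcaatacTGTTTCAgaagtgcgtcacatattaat
AGA1 (chrXIV:703477-703523, plus strand): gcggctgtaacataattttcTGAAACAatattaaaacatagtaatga

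The cell wall list, one of the larger lists, had many calls in both directions, 28 higher and 29 lower of 99 tested (104 listed), with a median of -0.06, equal to that of all genes. Among the higher members were NCA3, of the SUN family, at 71.0 and 74.7 CPM in R28P-30B and 21.3 and 24.8 CPM in WT, and PIR3, an O-glycosylated wall protein, at 118 and 165 CPM in R28P-30B and 44.5 and 49.9 CPM in WT. YPS3, an aspartic protease of the yapsin family, had 201 and 264 CPM in R28P-30B and 83.0 and 89.0 CPM in WT. The abundant wall proteins SED1 and HSP150 were higher by 0.55 and 0.49, and FKS1, the glucan synthase, by 0.28 on the log2 scale. CCW12, a still more abundant wall protein, was called lower, at -0.35 on the log2 scale. It had 7201 and 7142 CPM in R28P-30B and 9471 and 8868 CPM in WT, and lost its call after median centring.

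Genes that part daughter cells from mothers were among the lower members. CTS1, the chitinase of the septum, had 1079 and 1056 CPM in R28P-30B, against 1883 and 2014 CPM in WT (log2 -0.87 ± 0.06 SE, adjusted p = 3.00e-07, limma). DSE2, a daughter-specific glucanase, had 514 and 501 CPM in R28P-30B and 951 and 991 CPM in WT. SCW11, EGT2, SUN4 and DSE1, all linked to septum separation, were at -0.94, -0.87, -0.84 and -0.81 on the log2 scale. AMN1, a daughter-expressed gene that is not in the list, had 417 and 376 CPM in R28P-30B and 672 and 690 CPM in WT. These 7 genes were picked after their values were seen.

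The wall integrity pathway, which senses wall stress through Wsc sensors and the kinase Slt2, had 7 higher and 6 lower of 38, and 3 lower without the first R28P-30B or the second WT culture. Over all genes, 11.6% were called higher and 18.9% lower. BAG7, a GTPase-activating protein of Rho1, had 43.5 and 72.9 CPM in R28P-30B, against 10.6 and 13.6 CPM in WT (log2 2.18 ± 0.18 SE). SLT2 had 294 and 344 CPM in R28P-30B and 167 and 174 CPM in WT, and PTP2, a phosphatase that acts on it, was higher by 0.68. The sensor gene WSC4 went down, at 163 and 149 CPM in R28P-30B and 348 and 361 CPM in WT.

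Histone genes were lower as a set. Of 16 histone and histone regulator genes, 11 were lower and none was higher by limma, edgeR or DESeq2, with a median of -0.27. At an unadjusted p under 0.05 by limma, 0 were higher, and 7 to 12 were called lower in the alternatives examined. HTB2, an H2B gene, had 493 and 497 CPM in R28P-30B, against 743 and 805 CPM in WT, HHF2, an H4 gene, 820 and 855 CPM in R28P-30B and 1213 and 1114 CPM in WT, and HHT1, an H3 gene, 618 and 602 CPM in R28P-30B and 1058 and 785 CPM in WT. HTA2, an H2A gene, was at -0.50 and lost its call under DESeq2 (adjusted p = 0.0969). Histone copies are near identical, so the split between copies is uncertain. Histone genes are transcribed mainly in S phase. Other cell cycle genes had 13 higher and 16 lower of 48, with 8 higher without the first R28P-30B culture and 7 without the first WT culture. CLN3, a G1 cyclin, had 140 and 154 CPM in R28P-30B and 79.3 and 89.9 CPM in WT, and WHI5, the repressor it opposes, 29.1 and 31.7 CPM in R28P-30B and 44.1 and 49.5 CPM in WT.

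Genes of the ribosome itself changed little. Among large subunit protein genes, 5 were higher and 5 lower of 79, and among small subunit genes 2 were higher and 6 lower of 57, with medians of -0.00 on the log2 scale in both. These calls turned on single WT cultures: without the first WT culture 11 large subunit genes were higher and 1 lower, and without the second 0 were higher and 10 lower. Small subunit genes counted 8 higher without the first WT culture and 2 lower without the second R28P-30B culture. RPS28A, whose promoter drives the plasmid gene, had 851 and 761 CPM in R28P-30B and 833 and 759 CPM in WT and was not called. Its paralog RPS28B had 417 and 394 CPM in R28P-30B and 355 and 282 CPM in WT (log2 0.36 ± 0.09 SE, adjusted p = 0.00775, limma), and lost its call with DESeq2 (adjusted p = 0.066) and without the second WT culture (adjusted p = 0.0816, limma). Ribosome biogenesis factors had 28 of 117 lower and 0 higher by limma (0 at an unadjusted p under 0.05), but with edgeR 11 were lower and 2 higher, with DESeq2 13 lower and 0 higher. Without 1 library, 9 were lower (first R28P-30B culture), 12 (second R28P-30B culture) or 10 (second WT culture). Mitochondrial ribosomal protein genes had 18 of 66 lower and 1 higher, but with edgeR 6 were lower and 1 higher, and 4 were lower without the second R28P-30B culture and 6 without the second WT culture. For both lists the medians, each -0.10, lay close to that of all genes.

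Mineral nutrition genes were mixed, where 11.6% of all genes were called higher and 18.9% lower. Phosphate starvation genes had 8 higher (4 without the second WT culture, 5 without the second R28P-30B culture) and 4 lower of 31, with PHO89, a phosphate and sodium cotransporter, at 54.4 and 84.0 CPM in R28P-30B and 28.5 and 27.2 CPM in WT, while PHO84, the main high-affinity transporter, was at -0.23 and not called. The iron regulon had 6 higher and 1 lower of 31, with HMX1, a heme oxygenase, at 43.3 and 43.2 CPM in R28P-30B and 20.7 and 20.1 CPM in WT. Zinc genes had 4 higher and 7 lower of 20, and 3 lower without the first R28P-30B culture and 4 without the second WT culture. Multidrug transporters and Pdr targets had 11 higher (6 without the second R28P-30B culture) and 2 lower of 34. None was lower without the first R28P-30B or the second WT culture, nor with edgeR or DESeq2. Among the higher ones, HSP30, a plasma membrane stress protein, was higher by 1.01, and TPO3, a polyamine exporter, by 0.52. Fatty acid and phospholipid genes had 2 higher and 11 lower of 40, and 6, 5 and 4 lower without the first R28P-30B, the second R28P-30B and the second WT culture. Among the higher ones, INO1, inositol-3-phosphate synthase, had 968 and 1100 CPM in R28P-30B and 644 and 595 CPM in WT.

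Genes beside the replaced RPL7B locus also differed. OXR1, a protein of oxidation resistance that lies 340 nt to the right of RPL7B on chromosome XVI (positions 175043 to 175864, plus strand), had 129 and 126 CPM in R28P-30B, against 50.6 and 47.8 CPM in WT, 2.58-fold higher (log2 1.37 ± 0.06 SE, adjusted p = 7.04e-09, limma). YPL199C, 396 nt to the left, had 252 and 265 CPM in R28P-30B and 135 and 142 CPM in WT. One gene further to the right, APL5 was not called, at 191 and 191 CPM in R28P-30B and 194 and 191 CPM in WT. In the total extracts labelled R28P-30A, OXR1 had 50.4 and 48.7 CPM and YPL199C 130 and 132 CPM.

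At the RPL7A locus on chromosome VII, MPS2, a spindle pole body gene 928 nt to the right, had 36.6 and 33.9 CPM in R28P-30B and 50.9 and 56.2 CPM in WT (log2 -0.60 ± 0.07 SE), while HNM1, 418 nt to the left, had 756 and 779 CPM in R28P-30B and 780 and 791 CPM in WT and was not called. Near the original URA3 and LEU2 sites, 1 of 6 tested neighbours was called, YEL020C at -0.28, and it lost its call without the first R28P-30B culture (adjusted p = 0.0793) or the second WT culture (adjusted p = 0.0528, limma). OSH6, a reference gene of the study's RT-qPCR, had 63.2 and 60.7 CPM in R28P-30B and 70.9 and 71.8 CPM in WT (log2 -0.20 ± 0.06 SE, adjusted p = 0.0228, limma), and lost its call with edgeR (adjusted p = 0.0551), with DESeq2 (adjusted p = 0.13) and without any 1 of the 4 libraries (adjusted p of 0.0607 to 0.178, limma).

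The light ribosome and heavy polyribosome fractions of the same strains were sequenced as separate libraries. ARG1 differed by 1.93 in the light fraction and 2.0004 in the heavy fraction, beside 1.97 in the total extract, on the log2 scale and R28P-30B minus WT. URA1 differed by -1.40 in the light and -1.35 in the heavy fraction, beside -1.34 in the total extract. LEU1 differed by -1.29 in the light and -0.90 in the heavy fraction, beside -0.99. Some genes were less alike. ACO1 differed by -0.06 in the light and 0.83 in the heavy fraction, beside 0.76 in the total extract, and ARG5,6 by 0.41 and 1.0006, beside 1.05. The labels do not say whether the fractions came from the same cultures as the total extracts, so they were not taken as independent.

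**Figure D4:**
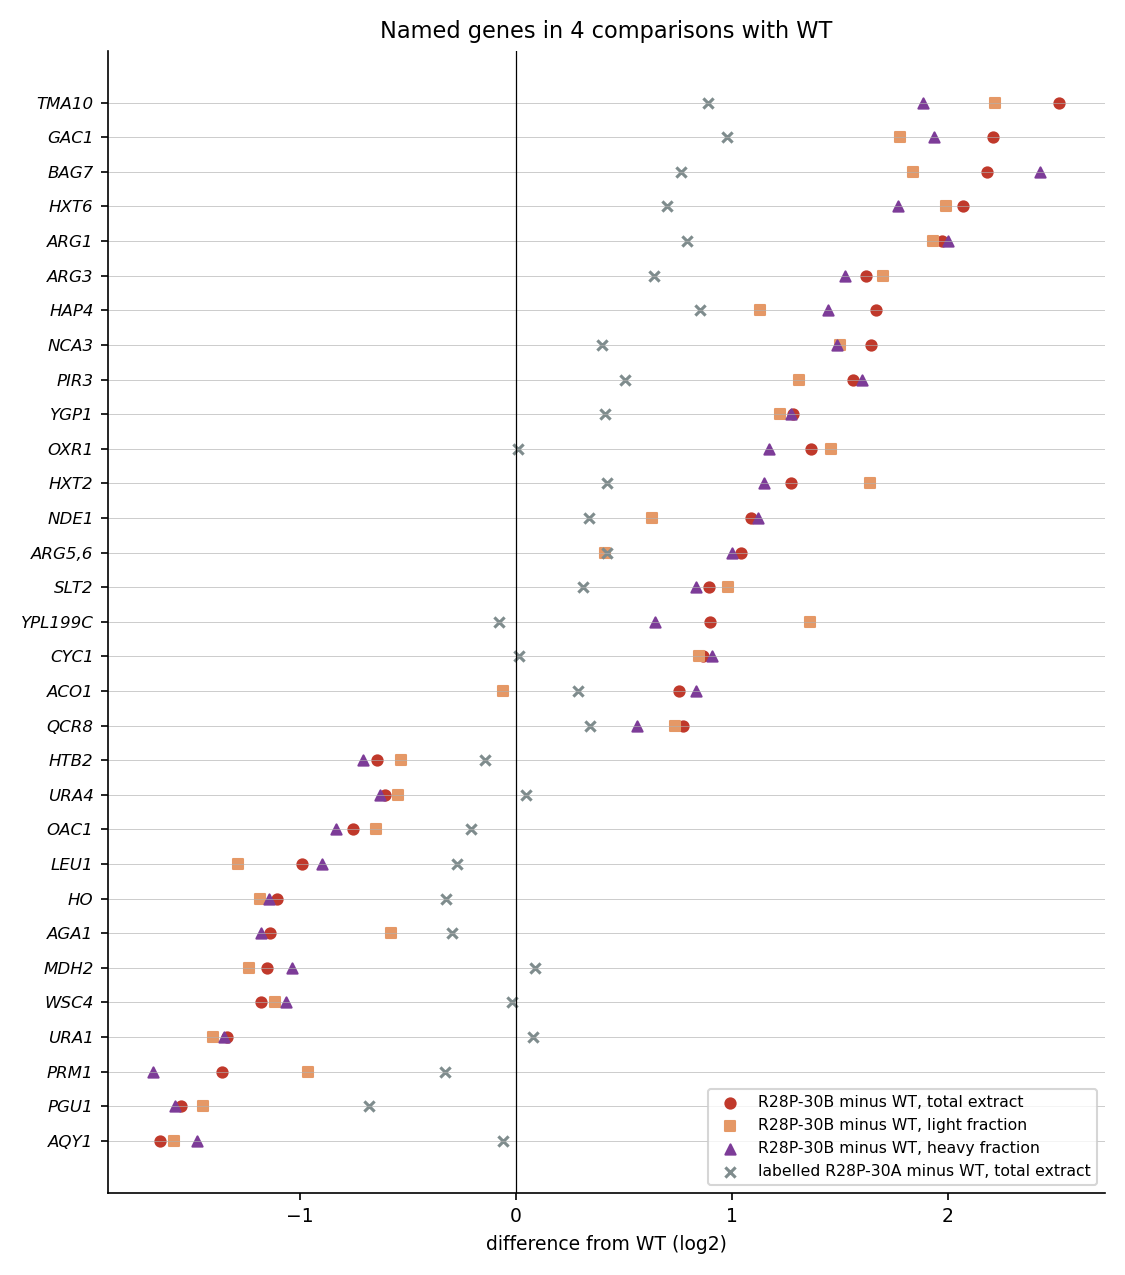
Log2 difference from WT of 31 named genes in the R28P-30B total extract (circles), light fraction (squares) and heavy fraction (triangles), and in the total extract labelled R28P-30A (crosses). The circles and crosses use the same WT total extracts, and the crosses lie nearer to 0 than the circles at every gene drawn. The genes drawn were named mostly for their R28P-30B differences, so the circles lie far from 0 by choice. The nearer crosses are therefore no separate result. URA1 is at -1.34 for the circle and 0.08 for the cross.

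The total extracts labelled R28P-30A, whose strain marker reads contradict their label, are given only side by side. In these extracts snR39, inside RPL7A, had 349 and 312 reads, beside 356 and 354 in WT and 0 in both R28P-30B libraries. Against the same WT cultures, HAP4 was at 0.85, TMA10 at 0.89, ARG1 at 0.79, PIR3 at 0.51 and LEU1 at -0.27 on the log2 scale, where R28P-30B was at 1.67, 2.52, 1.97, 1.56 and -0.99. WSC4, MDH2 and CYC1 were at -0.02, 0.09 and 0.02, where R28P-30B was at -1.18, -1.15 and 0.87. Some of these genes were also called in the extracts labelled R28P-30A, among them ARG1 (adjusted p = 0.0354, limma). GAC1 at 0.98 (adjusted p = 0.0151, limma) and YGP1 at 0.41 (adjusted p = 0.0118, limma) were called there too. TMA10 (adjusted p = 0.0951, limma) and LEU1 (adjusted p = 0.0613, limma) were not.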

How the data were processed

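Total extracts of 2 R28P-30B and 2 WT cultures, placed in groups by their labels, were compared. Per the labels and the methods, the authors selected polyadenylated RNA for strand-marking libraries, mapped reads on R64 with STAR, keeping all valid positions, and counted genes with featureCounts; versions and the strand setting are not given in the sources used here. The authors deposited CPM for 7126 genes, and 100% of the values were within 0.05 of a whole read, so reads were recovered. Reads without molecular identifiers are not independent molecules, and the floor of 3 reads covers counting error only. The deposited TPM was not used. Gene positions and sequences came from RefSeq R64, to which 6048 gene IDs matched; overlapping and antisense genes are uncertain.

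Differences are R28P-30B minus WT on log2(CPM + 0.5), from limma 3.58.1 with trend, in a fit of all 6 total extracts that shares 1 spread per gene among 3 strains, with genes at a mean of at least 5 CPM and Benjamini-Hochberg adjustment. The limma, edgeR and DESeq2 steps were tested on simulated counts. The named genes were, by rule, the 12 largest called changes each way, the 4 largest called changes of each of 46 gene lists (all where 1 or 2 were called, the most abundant member where none was), the neighbours of the strain markers, OSH6, RPS28A and RPS28B, 185 in all. The 12 and the 4 largest were taken only from genes changed alike in all 4 pairs of an R28P-30B and a WT culture. Another 54 genes were named after their values were seen. The members and lists were chosen with earlier results of these data known. Alternatives were other pseudocounts, filters, scalings, a replicate block, edgeR 4.0.16 and DESeq2 1.42.0 on recovered reads, and leaving out each library.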

Additional observations from a re-analysis of the deposited data

How the results depend on the processing

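None of the 239 named genes changed direction in an alternative where it was called there or in the main fit. Sign changes of genes called in neither were not counted. The genes were tested in all 16 alternatives, except that the filter at a mean of 20 CPM kept 212 of them. The 24 named for the largest changes kept their calls wherever tested, and 11 of them were not tested under that filter; 42 of the 219 called genes lost their call in at least 1 alternative, 40 of them when 1 library was left out. The count of higher genes, 639, ranged from 419 to 508 without 1 library, lowest without R28P-30B replicate 2. The count of lower genes, 1039, ranged from 473 to 908, and fell to 608 without R28P-30B replicate 1, to 550 without R28P-30B replicate 2 and to 473 without WT replicate 2. In these fits the lone culture is assumed to vary like the other strains. Lower genes numbered 646 with edgeR and 572 with DESeq2 on recovered reads, beside 860 and 783 higher, so that the higher share of calls was 57.1% and 57.8%, and 54% after median centring, against 38.1% with CPM as deposited. Adding a fold minimum of 2 (log2 1) left 49 higher and 11 lower genes. Across all alternatives these counts were 30 to 67 and 7 to 20.

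The labels give both strains the replicate numbers 1 and 2. The differences between replicates 1 and 2 correlated at 0.204 between the strains over 5513 genes, but with 2 pairs and no shared source stated the numbers were not taken as a pairing. With the replicate number as a block, 752 genes were higher and 1324 lower, and all 1678 calls were kept. With 2 cultures per strain, small differences and genes near 5 CPM are the least secure.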

Other observations

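Genes near telomeres and of repeated families had 9 of 30 tested called higher and 1 lower (78 listed), with a median of 0.13 on the log2 scale. Besides COS12, its member COS1 had 48.1 and 46.8 CPM in R28P-30B, against 21.6 and 16.7 CPM in WT, and these copies share reads. COS111, also called higher, by 1.17 on the log2 scale, lies away from the telomeres of chromosome II (positions 629168 to 631942). Its place in this list is therefore uncertain. The counts of the lists that follow stand beside 11.6% called higher and 18.9% lower over all genes. Nitrogen catabolite genes had 5 higher and 7 lower of 39, with 2 lower without WT replicate 2 and 3 lower without R28P-30B replicate 2. Sterol synthesis had 7 higher and 5 lower of 37, with 2 higher without R28P-30B replicate 2 or WT replicate 1.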
